A study of Mus musculus with 24 samples.

Results

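The 36 genes described here encode the aminoacyl-tRNA synthetases, the enzymes that join each amino acid to its own transfer RNA. They were taken by symbol from the joined expression table, in which all 36 were found among 24532 genes. The cytosolic set holds the 20 symbols without a final 2, and the mitochondrial set the 16 symbols that end in 2. Membership follows gene names, but the set was chosen with earlier results of these data known.

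Aminoacyl-tRNA synthetases spend ATP to activate an amino acid and transfer it to the matching transfer RNA, so that the ribosome receives charged transfer RNA for every codon. Cells keep separate enzymes for the cytosol and for the mitochondrion, and both kinds are encoded in the nucleus. Gars and Kars are exceptions, since 1 gene supplies both compartments, and mitochondria charge their glutamine transfer RNA through an amidotransferase in place of a synthetase. In mammalian cells many cytosolic synthetase genes are known targets of ATF4, the transcription factor at the centre of the integrated stress response. Uncharged transfer RNA is a known trigger of that response through the kinase GCN2.

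The study deleted Crif1, a protein of the mitochondrial ribosome, in hepatocytes and profiled RNA from the liver, inguinal white adipose tissue (iWAT), gastrocnemius muscle (GM) and hypothalamus. Control mice (Ctrl) were Crif1flox/flox, and liver-specific knockout mice (LKO) were Alb-Cre;Crif1flox/flox, in which the albumin promoter drives Cre in hepatocytes. Both groups carried the floxed alleles, were C57BL/6 mice of 8 weeks and had no other treatment in the labels, and each genotype gave 3 libraries per tissue, 24 in all. The labels do not tie the tissues to individual mice, so the libraries were taken as independent.

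Values are FPKM, fragment counts scaled by transcript length and by sequencing depth, and the deposited coverage puts each library at 4.45 to 8.09 gigabases (median 5.19). Crif1, listed as Gadd45gip1, read 14.6, 12.5 and 13.6 FPKM in Ctrl livers and 5.4, 2 and 2.51 FPKM in LKO livers, with LKO 1 the highest of the 3. Its log2 fold change was -1.84 in liver (SE 0.27, adjusted p = 0.00357 in limma) and -0.22, 0.02 and -0.06 in iWAT, GM and hypothalamus. The defining markers were present in every tissue: in the Ctrl libraries the summed level of 8 hepatocyte markers in liver was at least 57100 FPKM, of 6 adipocyte markers in iWAT at least 21500 FPKM, of 6 muscle markers in GM at least 91200 FPKM and of 8 hypothalamic and neuronal markers in hypothalamus at least 2380 FPKM. Markers of other tissues were also read. Muscle markers in iWAT summed to 524 FPKM in Ctrl 1, 835 FPKM in LKO 2 and 34.4 to 95.5 FPKM in the others. Hepatocyte markers summed to 13.5 to 262 FPKM in GM, and in hypothalamus to 30.2 FPKM in Ctrl 3 and 4.11 to 7.63 FPKM elsewhere. Their effect on the results was not tested. Over the 10956 genes tested in liver the median log2 fold change was 0.33, and it was -0.01 once the libraries were rescaled by their median ratio. In the other tissues the median lay between -0.03 and -0.01. For this reason the liver calls are also given after rescaling.

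A gene was called higher or lower in LKO when its limma p, adjusted after Benjamini and Hochberg across the genes tested in that tissue, was under 0.05 and its change at least 1.5-fold. Fold changes are on the scale of log2(FPKM + 1), LKO against Ctrl. Genes were tested where at least 3 of the 6 libraries of a tissue reached 1 FPKM. With 3 libraries a group, an exact two-sided permutation of any 1 gene reaches 0.1 at the lowest.

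In LKO livers 9 of the 20 cytosolic synthetases were called higher and 0 lower in limma, while 23.9% of all tested genes were called higher and 3.5% lower. The 9 were Sars, Gars, Vars, Iars, Cars, Eprs, Wars, Lars and Nars. Without the fold limit 11 of the 20 passed the adjusted threshold, all higher, against 43.8% of all tested genes in either direction and 38.3% higher. The median log2 fold change of the cytosolic set was 0.58 and the lowest was 0.01. All 20 were above 0, as were 8929 of the 10956 tested genes. After median-ratio scaling 15 of the 20 were above 0, where the median of all tested genes was -0.01. In 15 of the 20 every LKO library lay above every Ctrl library, an arrangement found in 53% of all tested genes.

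The largest change was in Sars, the cytosolic seryl-tRNA synthetase (NCBI Gene 20226, mm10 chr3:108424864-108445259, minus strand). It measured 13.4, 13.4 and 12.3 FPKM in Ctrl 1, 2 and 3 and 19.6, 46.7 and 67.6 FPKM in LKO 1, 2 and 3, a log2 fold change of 1.54 (SE 0.39, adjusted p = 0.0207). The groups did not overlap, and the LKO libraries spread widely, with LKO 3 at 3.44 times the level of LKO 1.

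Gars, which charges glycine in both compartments (chr6:55038001-55079504, plus strand), had the same arrangement. It read 17.5, 14.3 and 15.8 FPKM in Ctrl livers and 23.9, 52.2 and 75.7 FPKM in LKO livers, a log2 fold change of 1.47 (SE 0.37, adjusted p = 0.0198). Every LKO library was above every Ctrl library, and LKO 1 stayed nearest to the controls.

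Vars, the valyl-tRNA synthetase (chr17:35000907-35016329, plus strand), had the call that held under most settings. It read 10.7, 10.1 and 10.5 FPKM in Ctrl livers and 17.9, 24.3 and 32.6 FPKM in LKO livers, a log2 fold change of 1.14 (SE 0.20, adjusted p = 0.00607). The lowest LKO library was well above the highest Ctrl library. Vars was called higher in all 12 of the settings tabulated by name, which are the reported fit, 5 other ways of scaling or testing and the 6 fits that left out 1 library.

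Iars, the isoleucyl-tRNA synthetase, measured 11.3, 10 and 10.6 FPKM in Ctrl livers and 13.5, 25.2 and 36.3 FPKM in LKO livers (log2 fold change 1.06, SE 0.31, adjusted p = 0.031). The groups did not overlap, but LKO 1 was close to the controls.

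Cars, the cysteinyl-tRNA synthetase, varied little within each group. It read 9.63, 9.71 and 9.6 FPKM in Ctrl livers, and LKO livers held 18, 18.3 and 18 FPKM (log2 fold change 0.84, SE 0.09, adjusted p = 0.00149). All 3 LKO libraries sat at nearly the same level, with LKO 3 at 0.997 times LKO 1, whereas the median of that ratio was 1.82 over the cytosolic set.

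Wars, the tryptophanyl-tRNA synthetase, was also separated in every library. Its levels were 7.51, 6.39 and 8.55 FPKM in Ctrl livers and 12.2, 13.3 and 17 FPKM in LKO livers, a log2 fold change of 0.84 (SE 0.16, adjusted p = 0.00805). Wars is a known target of interferon gamma as well as of stress signals. Of 10 interferon gamma responsive genes tested, 1 was called higher (Gbp2) and 0 lower in limma, against 23.9% and 3.5% of all tested genes, and their median log2 fold change was -0.11. After median-ratio scaling 0 were called higher and 5 lower (median -0.47), against 9.78% and 7.53%.

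Eprs, a single protein that charges both glutamate and proline, measured 26.8, 25.4 and 26.7 FPKM in Ctrl livers and 33.8, 49.5 and 65.6 FPKM in LKO livers (log2 fold change 0.84, SE 0.22, adjusted p = 0.0223). Lars, the leucyl-tRNA synthetase and a leucine sensor of the mTORC1 pathway, measured 10.1, 7.57 and 7.69 FPKM against 10.7, 15.3 and 22.9 FPKM (log2 fold change 0.82, SE 0.25, adjusted p = 0.0365). Nars, the asparaginyl-tRNA synthetase, measured 42.5, 41.6 and 39.8 FPKM against 51.7, 75.1 and 94 FPKM (log2 fold change 0.78, SE 0.20, adjusted p = 0.0227). In all 3 genes the groups did not overlap, and LKO 3 was the highest and LKO 1 the lowest of the LKO libraries, with Lars in LKO 1 just above its highest Ctrl value.

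A further pair passed the adjusted threshold below 1.5-fold. Kars, the lysyl-tRNA synthetase of both compartments, had a log2 fold change of 0.56 (adjusted p = 0.0441), and Hars, the histidyl-tRNA synthetase, one of 0.42 (adjusted p = 0.0261). The remaining 9 cytosolic members did not pass. Their log2 fold changes were 0.60 for Yars, 0.57 for Rars, 0.49 for Farsb, 0.46 for Dars, 0.37 for Aars, 0.32 for Farsa, 0.25 for Qars, 0.07 for Mars and 0.01 for Tars.

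Tars, the threonyl-tRNA synthetase, had the smallest difference of the set in the deposited values, but was at -0.39 after median-ratio scaling (adjusted p = 0.052 in limma). It read 75.6, 70.2 and 67.1 FPKM in Ctrl livers and 72.2, 71.1 and 70.1 FPKM in LKO livers, so that the LKO values lay inside the Ctrl range (log2 fold change 0.01, 95% interval -0.22 to 0.23, adjusted p = 0.963). Aars, the alanyl-tRNA synthetase, was the other cytosolic member at this level. It read 74.7, 71.2 and 73.3 FPKM in Ctrl livers and 74.8, 96.6 and 118 FPKM in LKO livers (adjusted p = 0.0984), with LKO 1 at the top of the Ctrl range and LKO 3 well above it. Tars and Aars had the highest Ctrl levels in liver of all 36 members, and neither was called.

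Mars, the methionyl-tRNA synthetase, measured 24.6, 25.6 and 21.5 FPKM in Ctrl livers and 22.9, 26 and 26.5 FPKM in LKO livers, and the groups overlapped. The Mars gene overlaps Ddit3, which encodes the stress factor CHOP, on the opposite strand. The library kit does not mark strand, so reads of the shared stretch cannot be told apart. Ddit3 itself read 7.97, 8.03 and 7.24 FPKM in Ctrl livers and 18.9, 86.2 and 217 FPKM in LKO livers.

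**Figure D1:**
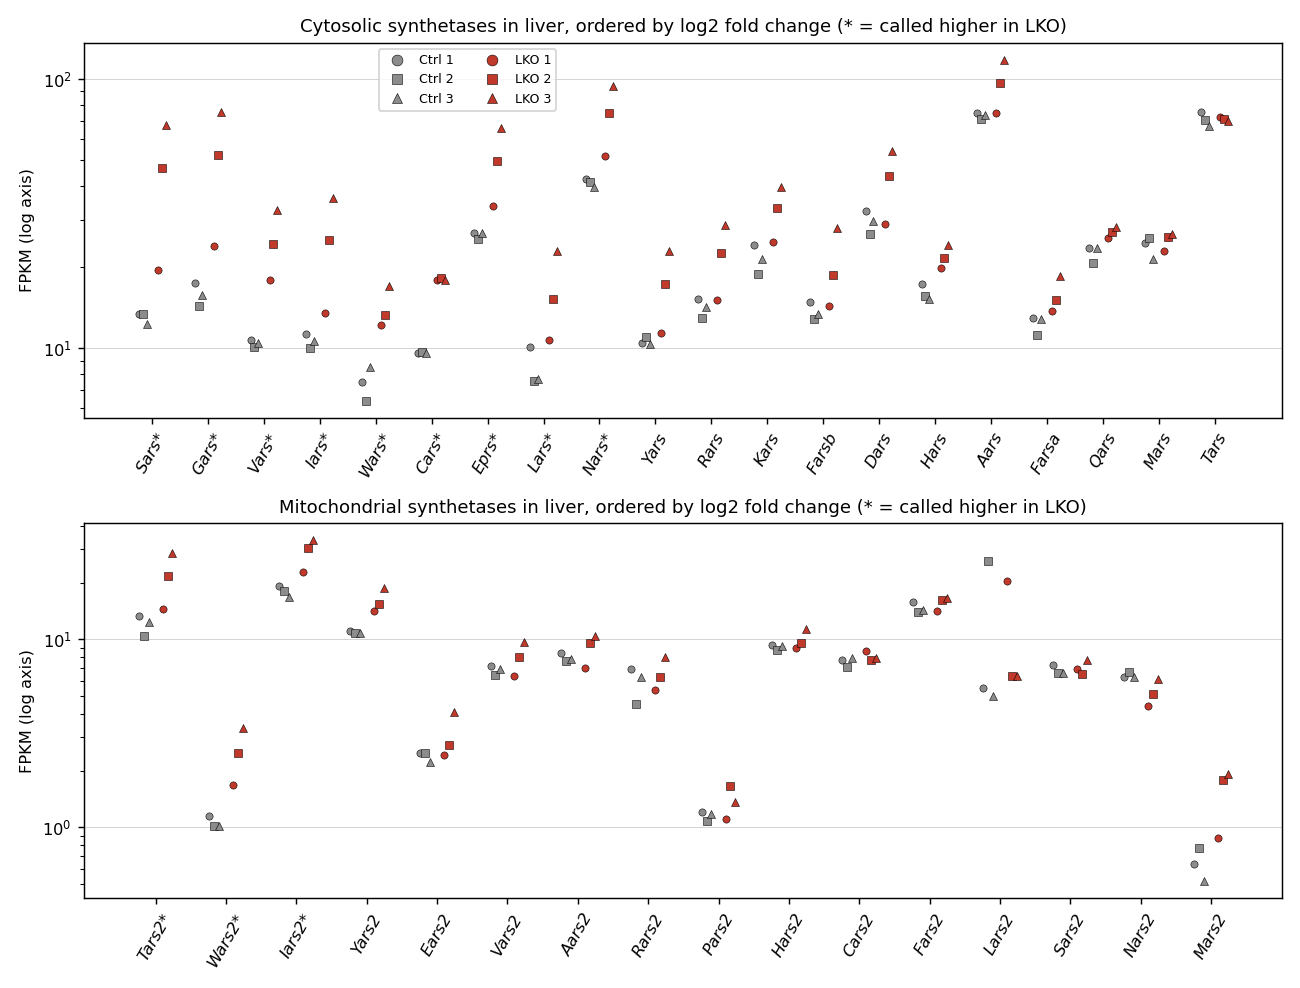
FPKM on a log axis of each cytosolic (top) and mitochondrial (bottom) synthetase in the 6 liver libraries, ordered by log2 fold change, with Mars2, which was not tested, last. Grey symbols are Ctrl and red symbols LKO, the symbol shape gives the replicate number, and an asterisk marks the 9 cytosolic and 3 mitochondrial members called higher. Sars runs from 19.6 to 67.6 FPKM over the LKO libraries, whereas Cars stays between 18 and 18.3 FPKM.

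Of the 16 mitochondrial synthetases, 15 passed the filter in liver, and 3 of these were called higher and 0 lower in limma, against 23.9% and 3.5% of all tested genes. Their median log2 fold change was 0.13, below the 0.33 of all tested genes. The 3 were Tars2, Wars2 and Iars2. In 4 of the 15 every LKO library was above every Ctrl library, against 53% of all tested genes, and in 1 (Nars2) every LKO library was below, against 8.1%.

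Tars2, the mitochondrial threonyl-tRNA synthetase, read 13.3, 10.4 and 12.4 FPKM in Ctrl livers and 14.5, 21.6 and 28.7 FPKM in LKO livers (log2 fold change 0.75, SE 0.23, adjusted p = 0.0363). The groups were separate, with LKO 1 just above the highest control. Its cytosolic counterpart Tars was the member that differed least in the deposited values, though not after median-ratio scaling (-0.39).

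Wars2, the mitochondrial tryptophanyl-tRNA synthetase, was low throughout, at 1.15, 1.02 and 1.02 FPKM in Ctrl livers and 1.68, 2.48 and 3.38 FPKM in LKO livers (log2 fold change 0.74, SE 0.18, adjusted p = 0.0181). Iars2, the mitochondrial isoleucyl-tRNA synthetase, read 19.2, 18 and 16.8 FPKM against 22.9, 30.5 and 33.5 FPKM (log2 fold change 0.64, SE 0.15, adjusted p = 0.0169). In neither gene did the groups overlap. Iars2 overlaps Rab3gap2 on the opposite strand, so its reads in the shared stretch cannot be assigned either.

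Yars2, for tyrosine, passed the adjusted threshold below 1.5-fold, with 11.1, 10.8 and 10.8 FPKM in Ctrl livers and 14.1, 15.4 and 18.8 FPKM in LKO livers. Its log2 fold change was 0.51 (adjusted p = 0.0191). Mars2, for methionine, was not tested because of its low level, 0.64, 0.773 and 0.515 FPKM in Ctrl livers against 0.878, 1.78 and 1.92 FPKM in LKO livers. The LKO values of both genes were above all Ctrl values.

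Nars2, the mitochondrial asparaginyl-tRNA synthetase, was the 1 tested member with a negative difference in the deposited values. It read 6.31, 6.67 and 6.3 FPKM in Ctrl livers and 4.42, 5.13 and 6.15 FPKM in LKO livers (log2 fold change -0.26, SE 0.13, adjusted p = 0.137). LKO 1 and LKO 2 were clearly lower, while LKO 3 was close to the controls. The other 9 mitochondrial members apart from Lars2 had log2 fold changes of 0.25 (Ears2), 0.18 (Vars2), 0.14 (Aars2), 0.13 (Pars2), 0.13 (Rars2), 0.11 (Hars2), 0.09 (Cars2), 0.08 (Fars2) and 0.04 (Sars2), and the groups overlapped in each.

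The cytosolic median lay above the mitochondrial one on both scales, but the sign of many members changed with the scaling. After median-ratio scaling the median log2 fold change was 0.21 for the cytosolic and -0.21 for the mitochondrial set. Then 3 cytosolic members were called higher (Gars at 1.09, Sars at 1.15 and Vars at 0.77), where 9.78% of all genes were called higher, and Nars2 was called lower at -0.60 (adjusted p = 0.00314), where 7.53% of all genes were. The other cytosolic members called in the deposited values were then at 0.68 (Iars, adjusted p = 0.0656), 0.45 (Eprs, adjusted p = 0.0526), 0.46 (Lars, adjusted p = 0.0973) and 0.39 (Nars, adjusted p = 0.0624), and the mitochondrial ones at 0.38 (Tars2, adjusted p = 0.112) and 0.26 (Iars2, adjusted p = 0.0615). Without the fold limit Cars (0.47) and Wars (0.47) also passed as higher, and Mars (-0.31, adjusted p = 0.0466) passed as lower. Of the mitochondrial members 4 passed that threshold as lower and 1 (Wars2, 0.49, adjusted p = 0.0249) as higher, against 15.2% and 17% of all genes.

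**Figure D2:**
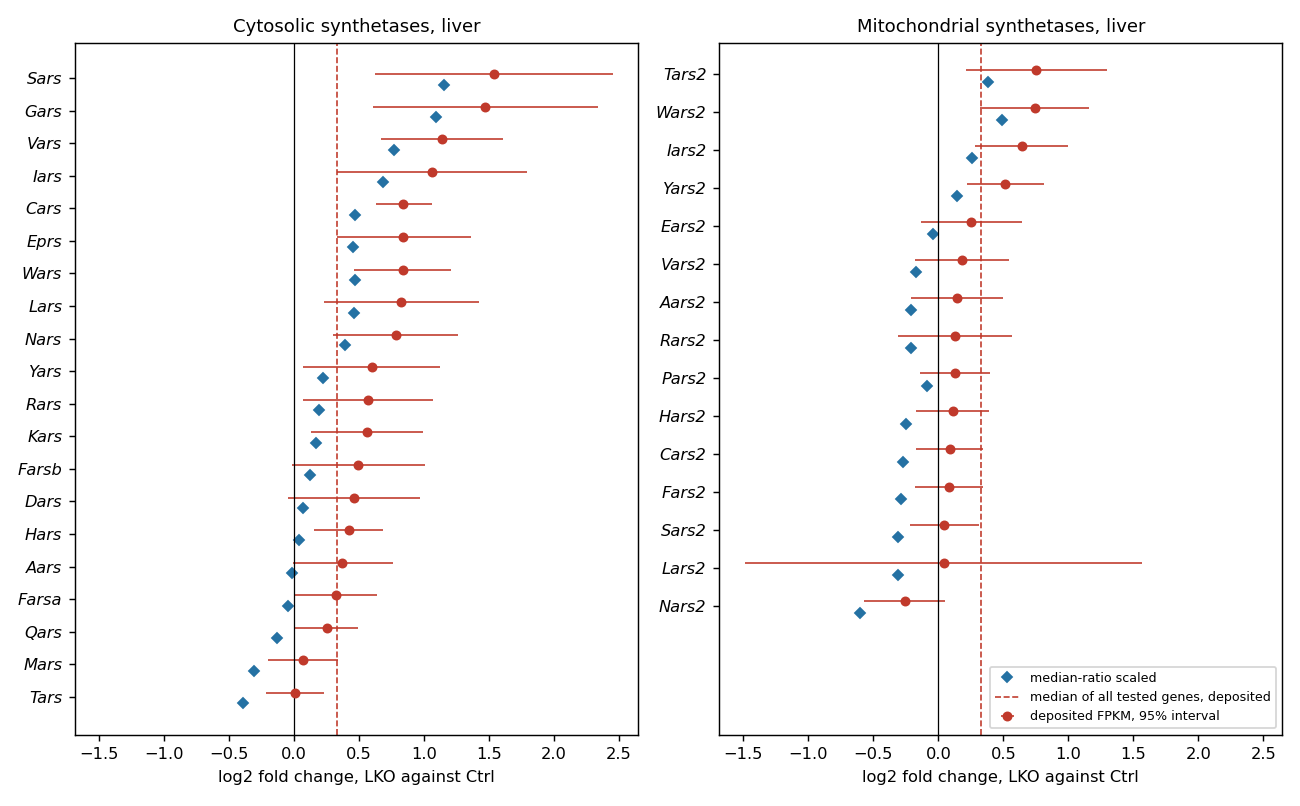
Log2 fold change in liver, LKO against Ctrl, of the cytosolic (left) and mitochondrial (right) synthetases. Red points with 95% intervals are from the deposited FPKM, blue diamonds from the same values after median-ratio scaling, and the dashed line is the median of all tested genes, 0.33. Gars, Sars and Vars stay furthest to the right on both scales, and most mitochondrial members move from slightly above to below 0.

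The number of calls also rested on single libraries. Leaving out LKO 2, Ctrl 2 or Ctrl 3 left 3 of the 36 called (Cars, Vars and Wars in each fit), leaving out Ctrl 1 left 4 and leaving out LKO 3 left 6, whereas leaving out LKO 1 gave 18. All tested genes moved with the members, from 23.9% called higher to between 14% and 16.6% in the smaller counts and to 34.7% without LKO 1.

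A ratio within a library does not change with the scaling of that library, so the enzymes for the same amino acid were compared in 16 cytosolic to mitochondrial pairs (Eprs was paired with both Ears2 and Pars2). In liver the ratio was higher in every LKO than in every Ctrl library in 9 pairs and lower in 2. In iWAT, GM and hypothalamus it was higher in 0 pairs and lower in 4, 1 and 2. The pairs share genes and the LKO libraries and were chosen after the values were seen, and no share over other gene pairs was computed, so these counts are a description without a baseline or a p-value.

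The Sars to Sars2 ratio showed the widest difference, at 1.83, 2.03 and 1.87 in Ctrl livers and 2.84, 7.12 and 8.7 in LKO livers. The Nars to Nars2 ratio was 6.74, 6.24 and 6.33 in Ctrl and 11.7, 14.6 and 15.3 in LKO livers. The Vars to Vars2 ratio was 1.49, 1.58 and 1.51 in Ctrl and 2.82, 3.04 and 3.39 in LKO livers. For serine, asparagine and valine the balance lay further towards the cytosolic transcript in all 3 LKO livers. The Cars to Cars2 ratio was 1.25, 1.37 and 1.21 in Ctrl and 2.08, 2.37 and 2.26 in LKO livers, again with no overlap.

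Threonine and methionine ran the other way. The Tars to Tars2 ratio was 5.66, 6.77 and 5.42 in Ctrl livers and 4.96, 3.29 and 2.44 in LKO livers. The Mars to Mars2 ratio was 38.5, 33.1 and 41.8 in Ctrl livers and 26.1, 14.6 and 13.8 in LKO livers, on a denominator below 2 FPKM. In the deposited values the cytosolic transcript of both pairs was nearly level and the mitochondrial one was higher. How the shift divides between the 2 genes depends on the scaling. After median-ratio scaling Tars was at -0.39 (adjusted p = 0.052 in limma), Mars at -0.31 (adjusted p = 0.0466) and Tars2 at 0.38 (adjusted p = 0.112). Exact two-sided permutation tests of these single ratios reach 0.1 at the lowest.

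**Figure D3:**
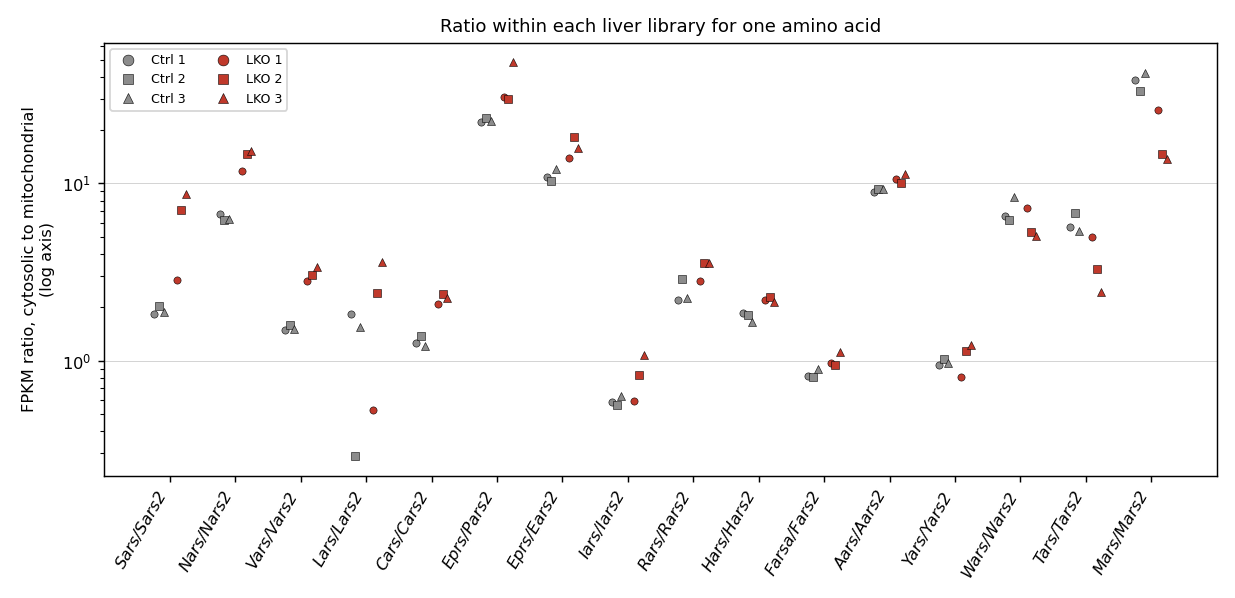
Ratio of the FPKM of the cytosolic to that of the mitochondrial synthetase for the same amino acid in each liver library, on a log axis, ordered by the LKO to Ctrl ratio of the means. Grey symbols are Ctrl and red symbols LKO, with the shape giving the replicate number. The ratio lies above all Ctrl values in the LKO libraries for 9 of the 16 pairs and below them for Tars/Tars2 and Mars/Mars2.

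The 3 LKO livers were not alike. LKO 3 held the highest LKO value for 18 of the 20 cytosolic and 12 of the 15 mitochondrial members, and LKO 1 the lowest for 18 and 12. The same order held for 67.8% (LKO 3 highest) and 69.6% (LKO 1 lowest) of all tested genes, and for 81.7% and 79.1% of the genes called higher. Against the Ctrl means, the median difference of the cytosolic set was 0.24, 0.65 and 0.98 in LKO 1, LKO 2 and LKO 3 on the log2 scale, and that of the mitochondrial set 0.01, 0.14 and 0.35.

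Markers of other cells and of cell division also moved in these livers, and their part in the result was not tested. The summed level of 5 Kupffer cell markers was 93.4 to 97.5 FPKM in Ctrl livers and 205, 237 and 326 FPKM in LKO 1, 2 and 3, and all 5 were called higher. All 3 testable of 6 monocyte and macrophage markers and 4 of 6 stellate and endothelial markers were called higher too, where 23.9% of all tested genes were, while T and B cell markers were too low to test. The 5 bile duct markers summed to 30.7 to 31.8 FPKM in Ctrl livers and 41.6, 88.9 and 76.3 FPKM in LKO 1, 2 and 3. The summed level of 10 proliferation markers was 4.57 to 7.6 FPKM in Ctrl livers and 146, 58.4 and 68.3 FPKM in LKO 1, 2 and 3, highest in the library where most synthetases were lowest. Most proliferation markers, S100a8 among the neutrophil markers, and Krt7 and Epcam among the bile duct markers were under 1 FPKM in every Ctrl liver and were tested only through their LKO levels, so no count of calls is given for these lists. After median-ratio scaling the calls were 4 of 5 for Kupffer cells, 1 of 6 for stellate and endothelial cells and 3 of 3 for monocytes and macrophages, against 9.78% of all genes. The 8 hepatocyte markers summed to 68700, 55300 and 42800 FPKM in LKO 1, 2 and 3, against 57100 to 59800 FPKM in Ctrl livers, and 1 of them, Serpina1a, was called lower (log2 fold change -0.92, adjusted p = 0.0329), against 3.5% of all tested genes. In bulk tissue, fewer cells of a type and less RNA per cell cannot be told apart.

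Grouped by structure, the class I enzymes, which share a Rossmann-fold catalytic domain, had 6 of 10 cytosolic members called higher (median log2 fold change 0.83), where 23.9% of all tested genes were. Eprs, whose glutamyl part is class I and whose prolyl part is class II, was counted in class I. The class II enzymes, built on a different fold, had 3 of 10 (median 0.48), but these included Sars and Gars, the largest changes of all. Of the 8 cytosolic members that sit in the multi-synthetase complex, 3 were called higher (Eprs, Iars and Lars, median 0.56), and of the 12 outside it 6 were (median 0.69). After median-ratio scaling, with 9.78% of all genes called higher, the counts were 1 for class I, 2 for class II, 0 for the complex and 3 outside it. The differences between these groups were not tested.

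Of 12 synthetases listed as ATF4-responsive from general knowledge, 8 were called higher in liver (Sars, Gars, Iars, Cars, Eprs, Wars, Lars and Nars), with a median log2 fold change of 0.83, against 23.9% of all tested genes. The other members of that list were Yars at 0.60, Aars at 0.37, Mars at 0.07 and Tars at 0.01. Vars, called higher in the 12 settings above, is not on it. After median-ratio scaling 2 of the 12 were called higher, against 9.78% of all genes, and without the fold limit 4 were higher and 1 (Mars) was lower, against 17% and 15.2%.

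The promoters of the members were searched for TGATGNAA, a short form of the element that ATF4 binds with C/EBP partners, on both strands from 250 bases before to 50 bases after the RefSeq start. The table (RefSeq, GRCm38.p6) held 27 of the 36 members, and those not matched were Cars, Hars, Lars, Nars, Rars, Vars, Wars, Hars2 and Pars2. The letters were present in 5 of the 13 matched cytosolic promoters (Aars, Gars, Iars, Tars and Yars) and in 0 of the 14 matched mitochondrial ones. Of all genes with a promoter entry 4.51% held them, and 1.03% held the stricter TGATGCAA, which Aars, Iars, Tars and Yars carry.

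The stretches below show the match before the start in Aars, Gars and Tars, in capitals, and the last 60 bases before the start of Sars and Tars2, the largest change of each set, where the window held no match. Each is written 5′ to 3′ on the strand of its gene, and the capitals are the reverse complement of the searched letters.
Gars, chr6:55037941-55038000, plus strand: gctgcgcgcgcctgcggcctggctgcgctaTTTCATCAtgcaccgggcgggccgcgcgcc
Aars, chr8:111033700-111033767, plus strand: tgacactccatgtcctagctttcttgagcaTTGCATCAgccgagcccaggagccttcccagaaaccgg
Tars, chr15:11399659-11399703, minus strand: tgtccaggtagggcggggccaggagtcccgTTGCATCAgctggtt
Sars, chr3:108445260-108445319, minus strand: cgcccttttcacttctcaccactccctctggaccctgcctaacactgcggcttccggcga
Tars2, chr3:95754978-95755037, minus strand: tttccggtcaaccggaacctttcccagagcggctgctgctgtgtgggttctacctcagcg

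The match began 30 bases before the start in Gars, 112 in Aars and 15 in Tars. In Iars and Yars it lay 7 and 3 bases after the start, and Aars had a second one 9 bases after. Of the 5 genes with the letters, Gars and Iars were called higher in LKO livers, while Yars, Aars and Tars were not. Sars and Eprs were called higher without them. A match is a string of letters and was not tested as a binding site.

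Several members share a start region with a neighbour on the other strand. Within 300 bases lay the starts of Hars and Hars2 (4 bases apart), Kars and Terf2ip (5), Rars2 and Orc3 (16), Yars and S100pbp (68), Wars and Wdr25 (98), Ears2 and Ubfd1 (112), Vars and D17H6S56E-5 (161), Sars2 and Mrps12 (187) and Fars2 and Lyrm4 (286). In liver Hars passed the adjusted threshold at 0.42, whereas Hars2, on the other side of the same 4 bases, was at 0.11 (adjusted p = 0.448). Wdr25, across from Wars, was at -0.09 (adjusted p = 0.577). After median-ratio scaling Hars was at 0.04 (adjusted p = 0.733 in limma), Hars2 at -0.25 (adjusted p = 0.0411) and Wdr25 at -0.33 (adjusted p = 0.0517).

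The neighbour of Vars differed far more than Vars did. D17H6S56E-5 read 0.596, 0.964 and 1.37 FPKM in Ctrl livers and 56.8, 43.2 and 29.8 FPKM in LKO livers, a log2 fold change of 4.46 (SE 0.25, adjusted p = 1.7e-04). Of the Ctrl livers only Ctrl 3 reached 1 FPKM, so D17H6S56E-5 passed the filter only through its LKO levels. Its level was highest in LKO 1 and lowest in LKO 3, the opposite order to Vars. In iWAT it was at 0.05 (adjusted p = 0.963) and in GM at 0.01 (adjusted p = 0.999).

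Other genes of transfer RNA charging were measured beside the synthetases in liver. The 3 scaffold proteins of the multi-synthetase complex had log2 fold changes of 0.61 (Aimp1), 0.70 (Aimp2) and 0.64 (Eef1e1), and 0 of the 3 passed the adjusted threshold (adjusted p = 0.0594, 0.0758 and 0.0955). Xpot, the exporter of transfer RNA from the nucleus, was called higher, from 12.3, 13.4 and 11.6 FPKM to 15, 24.9 and 37.6 FPKM (log2 fold change 0.91, adjusted p = 0.0397). The other 4 genes of its list of 5, for editing and export, were not. Tarsl2, which is outside the 36 and resembles Tars, was at 0.37 (adjusted p = 0.0695) and did not pass.

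Among the 4 genes of the mitochondrial amidotransferase and formylase 0 were called, where 23.9% of all tested genes were called higher and 3.5% lower. Gatb passed the adjusted threshold below 1.5-fold (log2 fold change 0.54, adjusted p = 0.0178). Of 10 mitochondrial translation factors 0 were called, beside the same shares. Without the fold limit 4 passed as higher, against 38.3% of all tested genes, led by Mrrf, the ribosome recycling factor, at 0.57 (adjusted p = 0.0284). Of 10 genes of mitochondrial transfer RNA processing 1 was called higher (Gtpbp3, 0.62, adjusted p = 0.0255), against 23.9% of all tested genes, and 5 passed the adjusted threshold in either direction, against 43.8%. Hsd17b10, a subunit of mitochondrial RNase P, went from 105, 105 and 104 FPKM to 73.9, 73.5 and 85 FPKM, below all controls but short of 1.5-fold (log2 fold change -0.43, adjusted p = 0.0158). After median-ratio scaling Gatb was at 0.17 (adjusted p = 0.15 in limma). Of the 10 translation factors 0 then passed the adjusted threshold, against 17% of all genes as higher and 15.2% as lower.

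On the cytosolic side 3 of 6 elongation factors were called higher, namely Eef1b2 (0.88), Eef1g (0.71) and Eif5a (0.66), against 23.9% of all tested genes. Of 17 regulators and targets of the integrated stress response 16 were tested and 10 were called higher. Psat1 and Phgdh, enzymes of serine synthesis, were under 1 FPKM in every Ctrl liver and were tested only through their LKO levels, so that count is not set against the background. Asns, the asparagine synthetase, went from 1.21, 0.783 and 2.07 FPKM to 5.2, 16.9 and 21.5 FPKM. Trib3, an ATF4 target, went from 1.82, 0.961 and 1.74 FPKM to 10.7, 75.9 and 200 FPKM. Both genes were lowest in LKO 1 and highest in LKO 3 among the LKO livers. This is the common order there, with LKO 3 highest in 67.8% and LKO 1 lowest in 69.6% of all tested genes. After median-ratio scaling 9 of the 16 were called higher. Xpot (0.53, adjusted p = 0.101), Gtpbp3 (0.29, adjusted p = 0.066) and the 6 elongation factors were not called higher, and Hsd17b10 was called lower at -0.83 (adjusted p = 0.0025), as was Dtd2, a deacylase of the editing list, at -0.59 (adjusted p = 0.00894). In the deposited values Atf4 was at 0.49 (adjusted p = 0.12) and Atf5 at 1.18 (adjusted p = 0.00194), and after the scaling they were at 0.10 (adjusted p = 0.674) and 0.79 (adjusted p = 0.00628).

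In iWAT, GM and hypothalamus, whose own cells are not the hepatocytes targeted by Alb-Cre, 0 of the 36 members were called in limma. All 36 were tested in each. Of all tested genes 0% were called in iWAT and GM, and 0% higher and 0.0217% lower in hypothalamus. At an unadjusted p under 0.05, 2 members passed in iWAT (against 15% of all genes), 0 in GM (6.83%) and 1 in hypothalamus (3.72%), and with the 1.5-fold limit added these became 0 (3.25%), 0 (0.901%) and 1 (0.333%). Every LKO library was above every Ctrl library for 2 members in iWAT (9.76% of all genes), 1 in GM (4.38%) and 3 in hypothalamus (4.74%), and below for 3 (11%), 0 (7.2%) and 3 (4.97%).

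In iWAT the 2 were Farsa, a subunit of the cytosolic phenylalanyl-tRNA synthetase, and Pars2, for mitochondrial proline. Farsa read 18, 18.1 and 17.3 FPKM in Ctrl and 15.6, 15.3 and 15.7 FPKM in LKO, with every LKO library lower (log2 fold change -0.19, unadjusted p = 0.022, adjusted p = 0.248 in limma). Pars2 read 1.21, 1.05 and 1.83 FPKM in Ctrl and 2, 1.73 and 3.07 FPKM in LKO, with overlapping groups (0.46, unadjusted p = 0.0499, adjusted p = 0.333 in limma). The cytosolic set as a whole ranged from -0.20 to 0.12 in iWAT (median -0.08). There 2 of 20 were above 0, against 5843 of the 12288 tested genes. The set ranged from -0.12 to 0.11 in GM (median -0.02) and -0.18 to 0.15 in hypothalamus (median 0.00).

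For the members called in liver, these tissues limit the size of a difference. Sars was at 0.12 in iWAT (95% interval -0.11 to 0.35), -0.04 in GM (-0.33 to 0.24) and -0.15 in hypothalamus (-0.32 to 0.02). Gars was at -0.06 (-0.26 to 0.15), -0.02 (-0.17 to 0.14) and 0.03 (-0.11 to 0.16). None of these intervals reached the 1.5-fold limit, whereas in liver the interval was 0.62 to 2.45 for Sars and 0.61 to 2.34 for Gars.

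**Figure D4:**
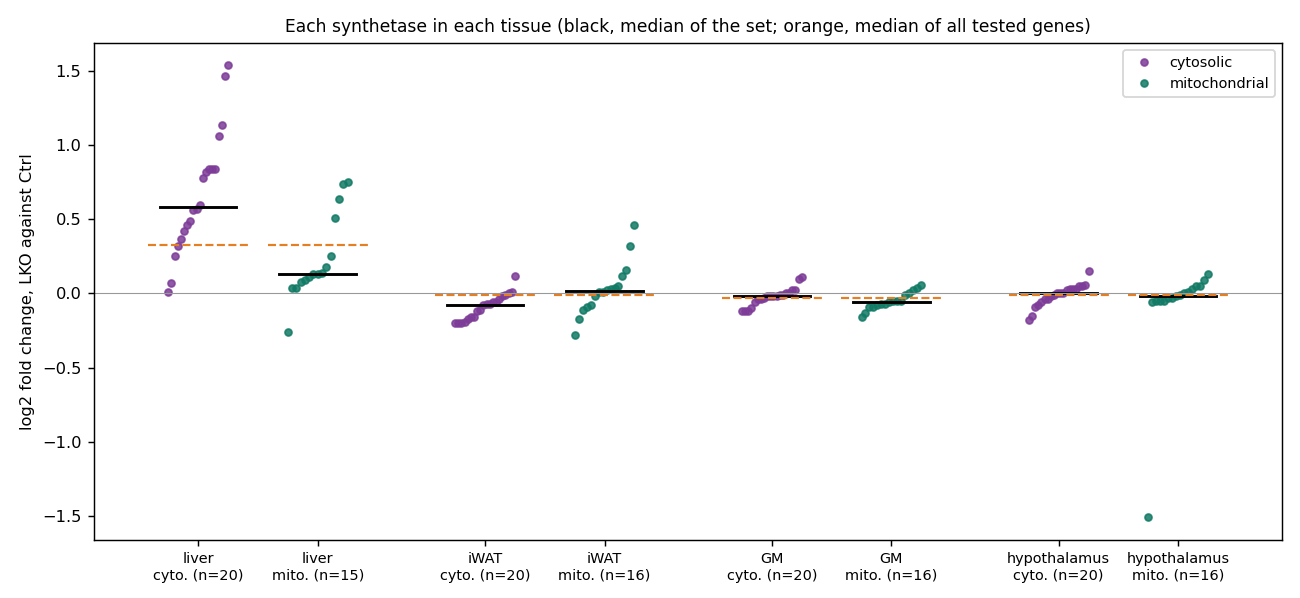
Log2 fold change, LKO against Ctrl, of every tested synthetase in the 4 tissues, cytosolic in purple and mitochondrial in green. Black lines are the medians of the sets and orange dashed lines the medians of all genes tested in the tissue. The liver cytosolic set has a median of 0.58, the other tissues lie near 0, and the single low point in hypothalamus is Lars2 at -1.51.

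Whether the LKO difference varied between tissues was tested with limma on the 24 libraries together, by an F test of 3 contrasts that each set a tissue against liver. It called 19 of the 36 members, 14 of 20 cytosolic and 5 of 16 mitochondrial, against 33.5% of all genes. Each contrast is the LKO difference of a tissue minus that of liver, given in the order iWAT, GM and hypothalamus. The contrasts were -0.93, -0.87 and -1.03 for Cars (adjusted p = 2.5e-05) and -0.91, -0.74 and -0.78 for Wars (adjusted p = 3.7e-04). For Vars they were -1.16, -1.14 and -1.09 (adjusted p = 6.6e-04). The mitochondrial members called were Iars2, Mars2, Tars2, Wars2 and Yars2. After median-ratio scaling 12 members were called, and the fits without replicate 1, 2 and 3 called 26, 1 and 2. No share over all genes was computed for these fits, so a shift of the members cannot be told from one of all genes.

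Lars2, the mitochondrial leucyl-tRNA synthetase, differed between libraries of the same group. In liver it read 5.53, 26.1 and 4.99 FPKM in Ctrl 1, 2 and 3 and 20.3, 6.36 and 6.34 FPKM in LKO 1, 2 and 3, so that 1 library of each genotype stood several times above the others. In hypothalamus it read 7.24, 27.3 and 44.5 FPKM in Ctrl and 6.41, 7.16 and 6.64 FPKM in LKO (log2 fold change -1.51, SE 0.55, unadjusted p = 0.0289, adjusted p = 0.999 in limma). Ctrl 1 of the hypothalamus sat with the LKO libraries, and the difference came from Ctrl 2 and Ctrl 3. Without Ctrl 1 the log2 fold change was -2.22 and Lars2 was called lower (adjusted p = 0.0231 in limma), while leaving out any of the other 5 libraries gave no call by the adjusted or the unadjusted p. In iWAT the range was 16 to 29.9 FPKM and in GM 20.1 to 25.3 FPKM.

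For comparison, the ribosomal RNA entry Rn45s read in liver 203 FPKM in Ctrl 2 and 163 FPKM in LKO 1, against 135 to 196 FPKM in the other 4 libraries, and in hypothalamus 92.8 and 137 FPKM in Ctrl 2 and Ctrl 3 against 79.3 to 137 FPKM in the others. The liver log2 fold change of Lars2 was 0.04 with an interval of -1.49 to 1.57, which leaves its direction unresolved.

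The Ctrl mice alone give the baseline of each enzyme. FPKM is per length of transcript, which lets genes be compared within a library, while a comparison between tissues also depends on how the libraries are scaled. An F test in limma over the 4 tissues called 32 of the 36 members different, fewer than the 99% of all tested genes. The 4 that were not called were Mars (adjusted p = 0.338), Lars2 (0.223), Pars2 (0.413) and Sars2 (0.257). Hypothalamus had the highest mean for 18 of the 36, apart from the next tissue for 12 of these, and liver the lowest for 17, apart for 10. Over all tested genes 42.5% were highest and apart in hypothalamus and 37% lowest and apart in liver.

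These counts changed with the scaling, which was tried after the values were seen. The size factors of the Ctrl libraries by median ratio were 0.655 to 0.676 in liver, 0.704 to 0.77 in GM, 1.25 to 1.3 in iWAT and 1.46 to 1.48 in hypothalamus. After dividing by them, 4 members were highest in hypothalamus (34.4% of all tested genes) and 3 lowest in liver (32.6%), while GM was highest for 16 (23%) and liver for 14 (24.9%). Tars, Aars, Nars2, Wars, Sars, Iars2 and Gars, described next, had the same highest tissue on both scales.

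Tars showed the largest span. Ctrl livers held 70.9 ± 4.31 FPKM (SD, n = 3), ahead of iWAT at 20.3 ± 0.907, GM at 17.6 ± 0.972 and hypothalamus at 12.5 ± 0.495, with no overlap between neighbours in that order. After scaling, liver was at 107 and hypothalamus at 8.49, again the highest and the lowest. Aars was also highest in liver, at 73 ± 1.75 FPKM (SD, n = 3), ahead of hypothalamus at 54.1 ± 1.76, while GM (32.8 ± 2.48) and iWAT (30 ± 2.14) overlapped. Nars2 was highest in liver too, at 6.42 ± 0.213 FPKM against 1.8 ± 0.292 in GM.

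Wars had the opposite pattern. It measured 41 ± 0.642 FPKM (SD, n = 3) in hypothalamus, 25.3 ± 1.04 in iWAT, 15.1 ± 0.884 in GM and 7.48 ± 1.08 in liver, all apart. After scaling, hypothalamus (27.8) and liver (11.3) were still its highest and lowest tissues and stood apart from the others. Sars was highest in hypothalamus as well, at 51 ± 4.45 FPKM (SD, n = 3) against 13 ± 0.659 in liver, but after scaling its hypothalamus libraries overlapped those of GM and iWAT was the lowest.

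Iars2 was highest in iWAT at 45.7 ± 3.95 FPKM (SD, n = 3), apart from the next tissue on both scales, with GM at 21.3 ± 0.338, liver at 18 ± 1.17 and hypothalamus at 16.5 ± 1.02. Gars was highest in iWAT (50.4 ± 2.99 FPKM, SD, n = 3) and lowest in liver (15.9 ± 1.61) on both scales. In the deposited values its iWAT libraries overlapped those of hypothalamus (48.1 ± 0.781). Wars2, Ears2, Pars2 and Mars2 stayed at or below 2.91 FPKM on average in every tissue.

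**Figure D5:**
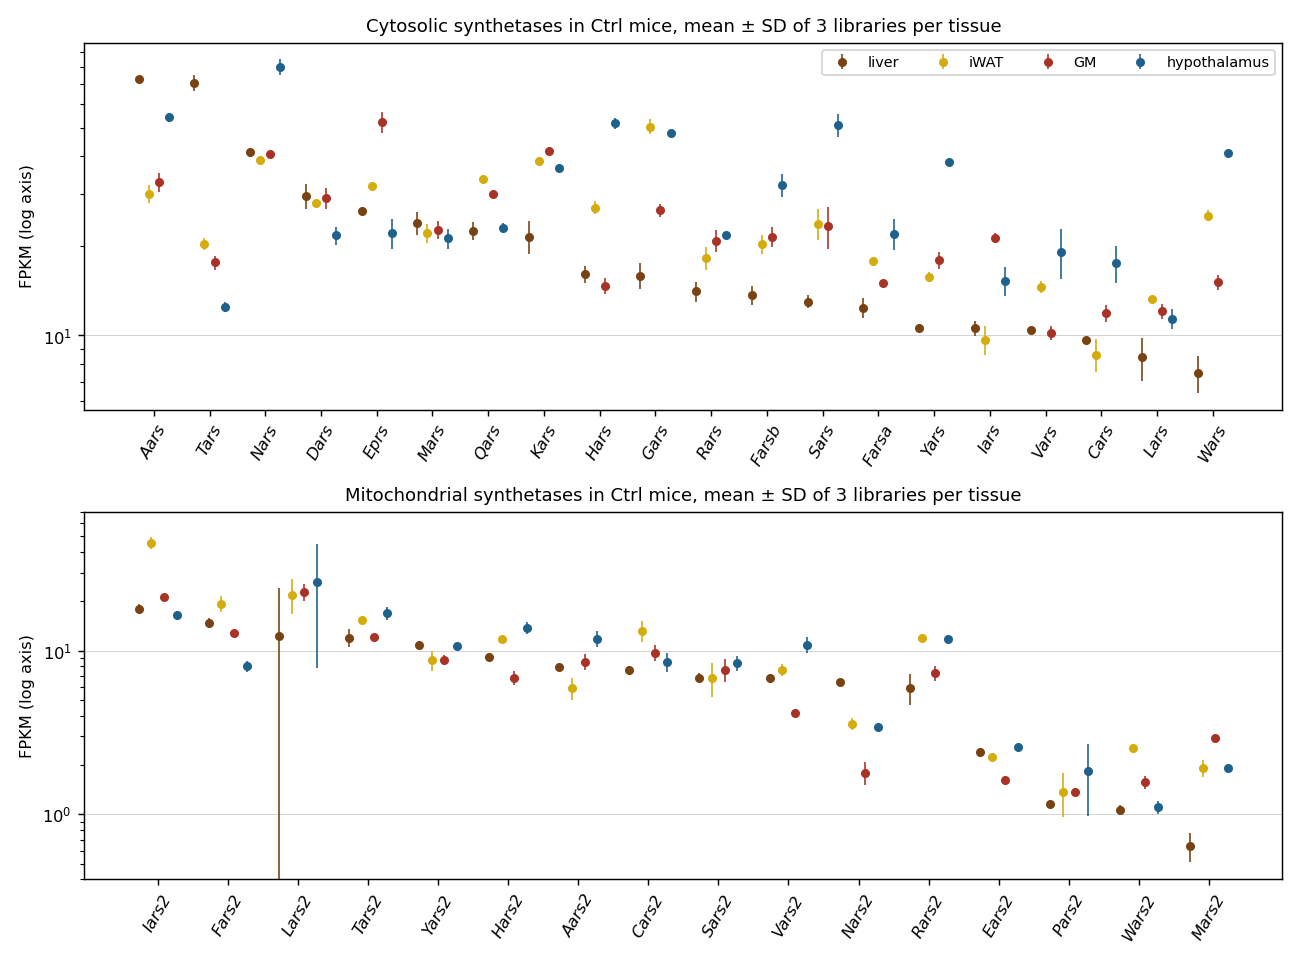
FPKM on a log axis of each cytosolic (top) and mitochondrial (bottom) synthetase in Ctrl mice, as mean and SD of 3 libraries for liver, iWAT, GM and hypothalamus, ordered by the liver mean. The values are as deposited, without scaling between tissues. Tars and Aars are highest in liver, at 70.9 and 73 FPKM, and Wars is lowest there at 7.48 FPKM. The SD bar of Lars2 in liver runs past the lower edge of the axis.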

How the data were processed

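RNA of 24 libraries was sequenced as paired ends after a TruSeq RNA v2 preparation. The submitters' processing notes name FastQC 0.11.5, Trimmomatic 0.32, HISAT2 2.0.5, Bowtie2 2.2.6, STAR 2.5.2b and StringTie 1.3.3b with the mm10 genome, without roles. The authors deposited FPKM per gene in 1 joined table, and for each library the signal of transcript coverage, FPKM and TPM. Between 99.56% and 99.72% of genes had the same FPKM in both tables. Read counts were not used here.

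The 6 libraries of a tissue were fitted on log2(FPKM + 1) by limma 3.58.1 (R 4.3.3, eBayes with trend), for genes reaching 1 FPKM in 3 or more of them. The fits were checked on simulated data. Replicate numbers did not pair the samples. Nothing in the labels says that replicates are separate animals, so p-values measure the spread between these libraries. Members and lists were chosen with earlier results of these data known. In liver every member is named, with library values for members called or with the largest changes; elsewhere the members with an unadjusted p under 0.05. Pair ratios, neighbouring genes and promoter letters were chosen after values were seen. Motifs were searched in Python 3.11.15.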

Additional observations from a re-analysis of the deposited data

Results flagged for a closer look

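The test of the LKO difference between the 4 tissues (limma, F test over 3 interaction contrasts, Benjamini-Hochberg adjustment over all genes tested, 33.5% of which passed) singled out 19 members. The adjusted p was 2.5e-05 for Cars, 3.7e-04 for Wars, 6.6e-04 for Vars, 0.00268 for Gars, 0.00353 for Nars, 0.00375 for Sars, 0.00391 for Eprs, 0.00727 for Iars, 0.00778 for Hars, 0.0106 for Lars, 0.0109 for Kars, 0.0226 for Yars, 0.0254 for Farsa and 0.0271 for Rars. Among the mitochondrial members it was 0.00238 for Iars2, 0.0035 for Wars2, 0.0135 for Yars2, 0.0156 for Mars2 and 0.0168 for Tars2. In all 19 the 3 contrasts were negative, so that the LKO difference was larger in liver than in iWAT, GM or hypothalamus. On this scale 8929 of the 10956 genes tested in liver were above 0 there. The share of all genes with 3 negative contrasts was not computed. Without replicate 1 the test called 26 members, without replicate 2 it called 1, and without replicate 3 it called 2. The share of all genes called in these smaller fits was not computed.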

How the results depend on the processing

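The values come without read counts, so no counting error is given, and genes near 1 FPKM (Wars2, Pars2, Mars2) rest on few fragments. Median-ratio scaling, quantile normalization and ordinary variances each left 3 liver members called higher, against 9.78%, 8.21% and 11.7% of all tested genes. Leaving out 1 library left between 3 and 18, against 14% to 34.7%. Median-ratio scaling and quantile normalization each called 1 liver member lower, where 825 and 746 of the 10956 tested genes were. The cytosolic median was 0.21 after median-ratio scaling, and the mitochondrial median was -0.21 there and -0.25 after quantile normalization. Liver log2 fold changes that turned negative, given first for median-ratio scaling and then for quantile normalization, were -0.05 and -0.05 (Farsa), -0.31 and -0.27 (Mars), -0.13 and -0.08 (Qars), -0.39 and -0.19 (Tars), -0.21 and -0.22 (Aars2), -0.27 and -0.28 (Cars2), -0.04 and -0.18 (Ears2), -0.29 and -0.29 (Fars2), -0.25 and -0.26 (Hars2), -0.31 and -0.34 (Lars2), -0.09 and -0.30 (Pars2), -0.21 and -0.25 (Rars2), -0.31 and -0.33 (Sars2) and -0.17 and -0.19 (Vars2), and Aars was at -0.02 after median-ratio scaling. Leaving out 1 library gave ranges of 0.00 to 0.13 for Mars, -0.03 to 0.05 for Tars, -0.47 to 0.74 for Lars2, -0.02 to 0.25 for Rars2 and -0.02 to 0.09 for Sars2. In iWAT 1 member passed the unadjusted threshold as higher with a pseudocount of 0.1 or with deposited TPM, and between 0 and 1 with a library left out (1 without Ctrl 3). In hypothalamus the members called lower ranged from 0 to 1 without 1 library, by the adjusted and by the unadjusted p, (1 without Ctrl 1), and the unadjusted count was 0 with ordinary variances. In Ctrl mice 4 members were highest in hypothalamus (34.4% of all genes) and 3 lowest in liver (32.6%) after median-ratio scaling across tissues, an alternative chosen after seeing the data. The members whose LKO difference varied between tissues numbered 12 after median-ratio scaling, 10 after quantile normalization and between 1 and 26 without 1 replicate number. For these settings no share over all genes was computed. For these shifts the cause was not tested, beyond the smaller number of libraries. A replicate block left 12 liver members called higher and 19 in the interaction test, and same-numbered liver libraries correlated at 0.15, 0.03 and 0.04 in their deviations, so the numbers were not taken as pairs.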
